A study of Mus musculus with 8 samples.

Results

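Follistatin, the activin subunits and the activin receptors were followed across 8 microarrays of primary osteoblasts grown from mouse calvaria, the flat bones of the skull. The family was defined by gene symbol and held 9 genes, set beside 16593 genes with a named probe in all: the secreted binders Fst, Fstl1 and Fstl3, the ligand subunits Inhba and Inhbb, and the receptors Acvr1, Acvr1b, Acvr2a and Acvr2b. It had 8 of the 25697 probes on the array, 1 for each gene except Fstl3, for which no probe was named and which was not analysed here. Of the 8 genes with a probe, 6 entered the test across 7041 genes, and Acvr1b and Acvr2a, detected on no array, did not. The family was drawn up with the comparison of knockout-labelled and control arrays already in view, Fst being among its largest rises, so the members' differences are given as descriptions, without p-values.

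Activins are secreted dimers of inhibin beta subunits and belong to the TGF-beta superfamily. They bind a type II receptor, which recruits and activates a type I receptor, and the signal passes to the nucleus through Smad2 and Smad3. Follistatin wraps around activin and keeps it from its receptors. Activin A is stored in bone matrix, promotes osteoclast formation and can restrain mineralisation by osteoblasts in culture.

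The knockout-labelled group (genotype given as Lrp5-/-, 4 arrays) was set against the control group (Lrp5+/+, 4 arrays), both of C57Bl/6 background. Cultures of both groups received a virus 48 hours before differentiation, expressing either Cre recombinase, which excises loxP-flanked DNA, or green fluorescent protein; the labels do not tie a virus to a group. Differentiation then ran for 7 days in medium containing beta-glycerol phosphate (10 mM) and ascorbic acid (50 ug/ml). The arrays are not stated to be of separate animals or cultures, so the spread between them may be technical. In such bulk samples, fewer cells of a type and less RNA per cell cannot be told apart.

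The targeted gene did not check the labels. Lrp5, a Wnt coreceptor, stood at 5.63, 5.66, 6.07 and 6.10 log2 on the knockout-labelled arrays, of which 2 detected it, against 5.43, 5.70, 5.48 and 5.53 on the control arrays, of which 1 did. The place of its probe relative to the deleted part is not known here, and every direction below rests on the labels. Between 37.7% and 40.3% of probes were detected per array. Of 8 osteoblast markers with a probe, 6 were detected on at least 4 arrays (Sp7, Col1a1, Col1a2, Alpl, Ibsp and Sparc), while Bglap and Postn were detected on none. All 5 endothelial and all 5 adipocyte markers went undetected on every array.

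Fst, which encodes follistatin, was higher on every knockout-labelled array than on any control array. Its deposited signal intensity was 376.3, 332.9, 357.8 and 414.4 on the knockout-labelled arrays, against 282.9, 315.5, 280.1 and 268.9 on the control arrays. The groups were thus apart before any normalization. After background correction and quantile normalization, Fst stood at 8.36, 7.88, 8.16 and 8.05 log2 on the knockout-labelled arrays, against 7.49, 7.42, 7.47 and 7.16 log2 on the control arrays. The lowest knockout-labelled array was replicate 2, and the lowest control array was replicate 4. The means were 8.11 ± 0.20 log2 in knockout-labelled arrays and 7.39 ± 0.15 log2 in control arrays (SD, n = 4 each), a difference of 0.73 log2 (SE 0.11) or 1.66-fold. Only 7 of the 7041 genes tested had a larger positive difference.

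The size of the Fst difference depended on how background was handled. The ratio of the mean deposited intensities, with background still in them, was 1.29. Without background correction the difference was 0.46 log2, and in the authors' deposited log2 values 0.47. Leaving out 1 array at a time kept it between 0.64 and 0.80.

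**Figure D1:**
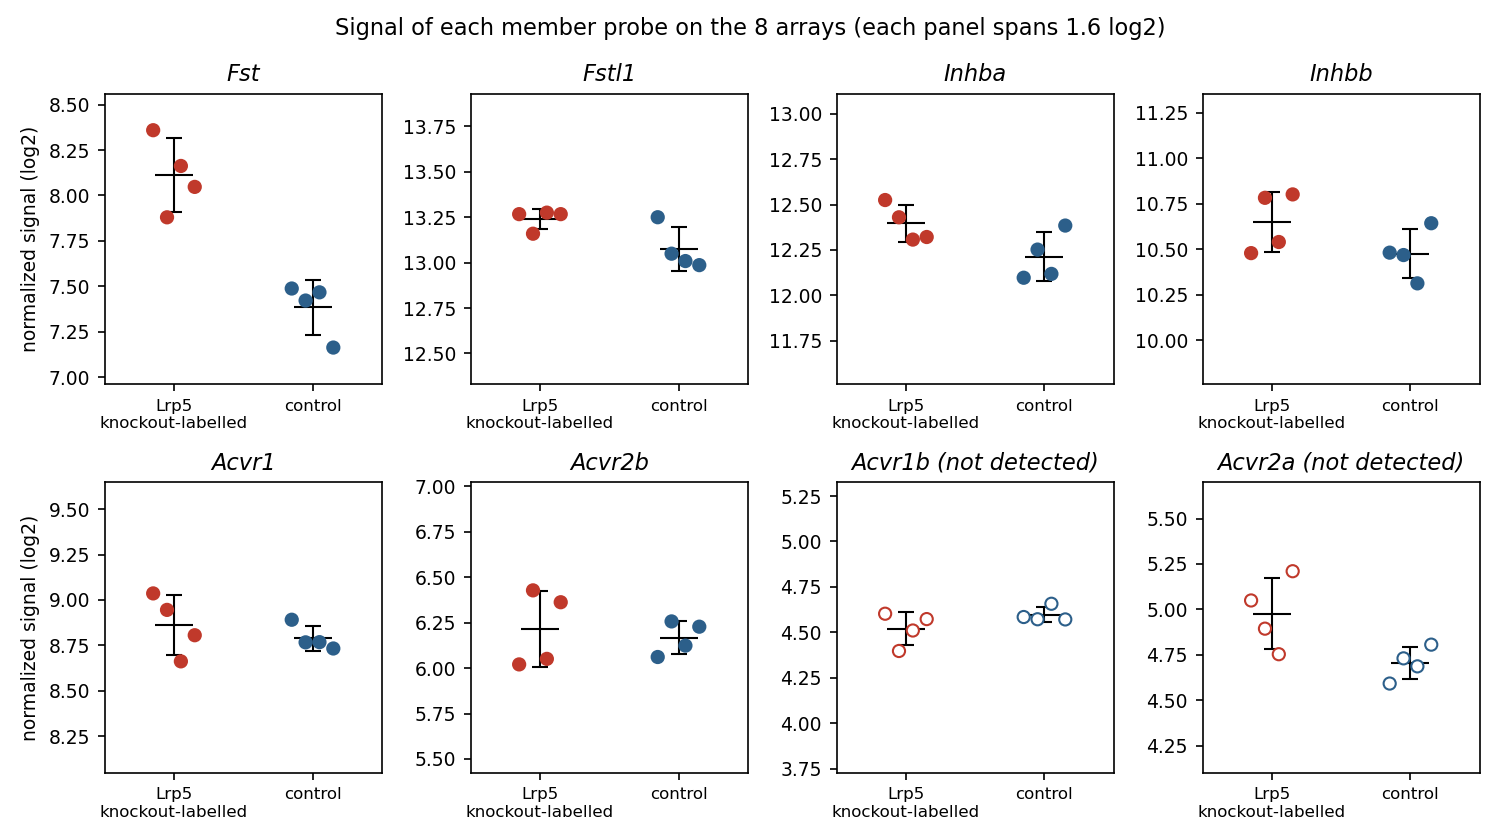
Normalized signal (log2, vertical axis) of each family probe on the 4 knockout-labelled arrays (left, red) and the 4 control arrays (right, blue). Points are arrays, bars the mean and SD, and open points arrays on which the probe was not detected. Fst is the panel whose groups do not overlap (7.88 to 8.36 in knockout-labelled arrays, 7.16 to 7.49 in control arrays).

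Fstl1, a secreted glycoprotein with a follistatin-like domain that is not a classical activin trap, had an intensity of 8650 to 11029 on the knockout-labelled arrays, against 7939 to 9549 on the control arrays. Its normalized signal was 13.27, 13.16, 13.27 and 13.27 log2 on the knockout-labelled arrays, against 13.25, 13.05, 13.01 and 12.99 log2 on the control arrays. The groups overlapped through control replicate 1, which lay level with the knockout-labelled arrays, and knockout-labelled replicate 2, which lay below the rest of its group. The difference was 0.17 log2 (SE 0.07).

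The ligand subunit genes were well above background on all 8 arrays, and their groups overlapped. Inhba, whose product pairs with itself to form activin A, stood at 12.52, 12.43, 12.31 and 12.32 log2 on the knockout-labelled arrays, against 12.10, 12.25, 12.12 and 12.38 log2 on the control arrays. Control replicate 4 reached into the knockout-labelled range and the other control arrays lay below it. The means were 12.40 ± 0.10 log2 in knockout-labelled arrays and 12.21 ± 0.13 log2 in control arrays (SD, n = 4 each), a difference of 0.18 (SE 0.08).

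Inhbb, which encodes the subunit of activin B, stood at 10.48, 10.78, 10.54 and 10.80 log2 on the knockout-labelled arrays, against 10.48, 10.47, 10.31 and 10.64 log2 on the control arrays. The knockout-labelled arrays split into a higher pair, replicates 2 and 4, and a lower pair that lay among the control arrays. The difference was 0.17 log2 (SE 0.10).

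Each receptor gene that was detected had overlapping groups and a difference smaller than its SE. Acvr1 encodes a type I receptor best known for BMP signalling, and its activating mutations cause heterotopic bone formation in humans. It stood at 9.04, 8.95, 8.66 and 8.81 log2 on the knockout-labelled arrays, against 8.89, 8.77, 8.77 and 8.73 log2 on the control arrays. The knockout-labelled arrays lay on both sides of the control arrays, and the difference was 0.07 log2 (SE 0.08).

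Acvr2b, a type II receptor for activins and related ligands, was dim but detected on all 8 arrays (detection p at most 0.00627). It stood at 6.02, 6.43, 6.05 and 6.36 log2 on the knockout-labelled arrays, against 6.06, 6.26, 6.12 and 6.23 log2 on the control arrays. The difference of 0.05 (SE 0.10) turned to -0.02 without knockout-labelled replicate 2 and to -0.00 without replicate 4.

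Acvr1b, the main type I receptor of activin, and Acvr2a, the other type II receptor, could not be measured. The Acvr1b intensity was 106.3 to 134.5 on the knockout-labelled arrays, against 119.6 to 133.4 on the control arrays, with detection p-values of 0.361 to 0.971. The Acvr2a intensity was 122.3 to 161.1 on the knockout-labelled arrays, against 120.0 to 141.6 on the control arrays, with detection p-values of 0.0489 to 0.509. Both probes were indistinguishable from background by the detection threshold of 0.01, which bounds their signal and does not show that the transcripts were missing; no fold is given.

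Of the 6 members tested, Fst was called higher (limma, Benjamini-Hochberg adjusted p under 0.05 over all genes tested) and 0 were called lower. Over all 7041 genes, 3.54% were called higher and 5.08% lower, and every knockout-labelled array lay above every control array for 7.54% of genes and below for 9.25%, together 16.8%. Of the members tested, Fst was the only 1 whose groups did not overlap. Because the family was chosen on this contrast, nothing is read from its count. After normalization all 6 differences were above 0, with a median of 0.17 log2 against 0.00 for all genes tested. The values of the 5 members other than Fst lay between 0.05 and 0.18, inside the bulk of genes: 13.4% of genes had a difference at least as high as that of Inhba, 14.4% as that of Inhbb, 15.1% as that of Fstl1, 31.6% as that of Acvr1 and 37.3% as that of Acvr2b. Missing the threshold does not show that these genes were alike in both groups. The mean deposited intensity was lower on knockout-labelled than on control arrays for Acvr1 (554.6 against 571.5) and Acvr2b (178.9 against 187.3). It was higher for the other members tested.

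**Figure D2:**
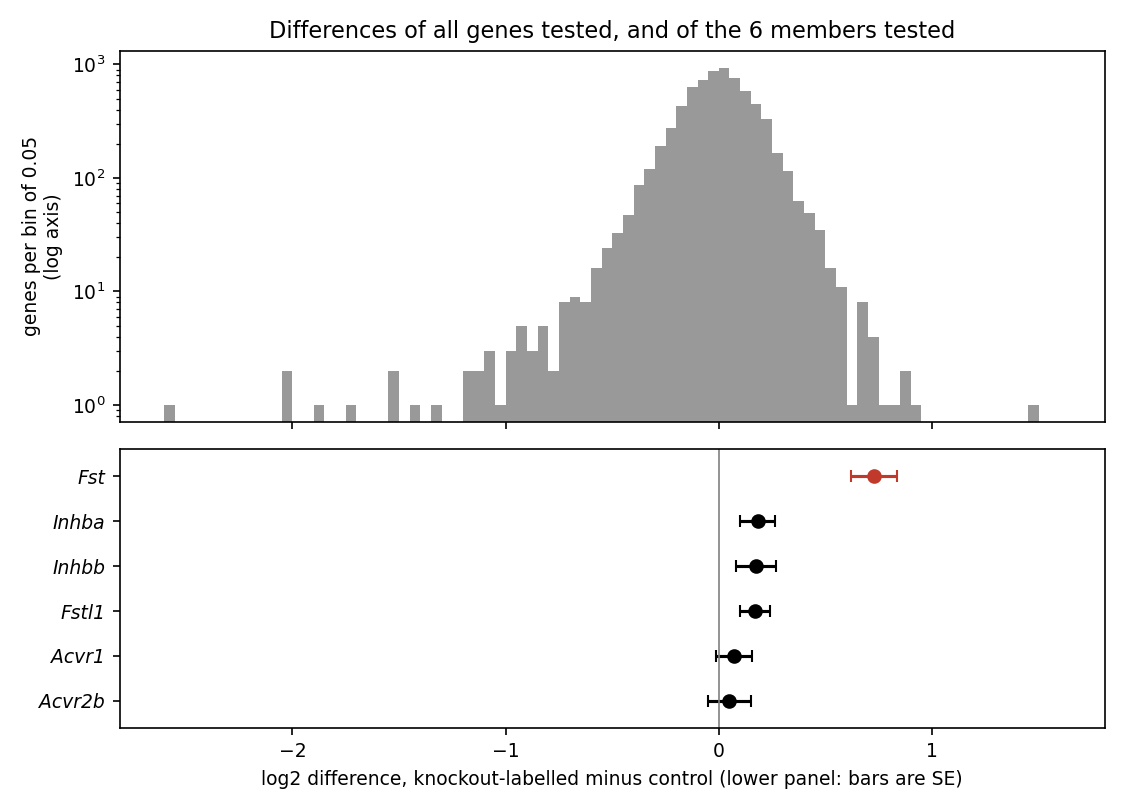
Upper panel, number of genes (log axis) by log2 difference, knockout-labelled minus control, for the 7041 genes tested. Lower panel, the 6 family members tested with their SE; Fst (red, 0.73) lies in the right tail, and the 5 others lie between 0.05 and 0.18.

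The antagonist and its ligands were also compared within each array, where the difference between the Fst and Inhba probes can be followed from array to array although its absolute size has no meaning across probes. Fst minus Inhba was -4.17, -4.55, -4.14 and -4.27 log2 on the knockout-labelled arrays, against -4.61, -4.83, -4.65 and -5.22 log2 on the control arrays. The groups did not overlap, though knockout-labelled replicate 2 and control replicate 1 lay close together, and the shift was 0.54 log2. Fst minus Inhbb was -2.12, -2.90, -2.38 and -2.75 log2 on the knockout-labelled arrays, against -2.99, -3.05, -2.84 and -3.48 log2 on the control arrays. Here knockout-labelled replicate 2 lay below control replicate 3, and the shift was 0.55 log2. Since Fst was among the values that drew up the family, these shifts restate that choice and nothing is read from them. Without background correction the shift against Inhba was 0.28, and in the authors' deposited log2 values 0.30.

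**Figure D3:**
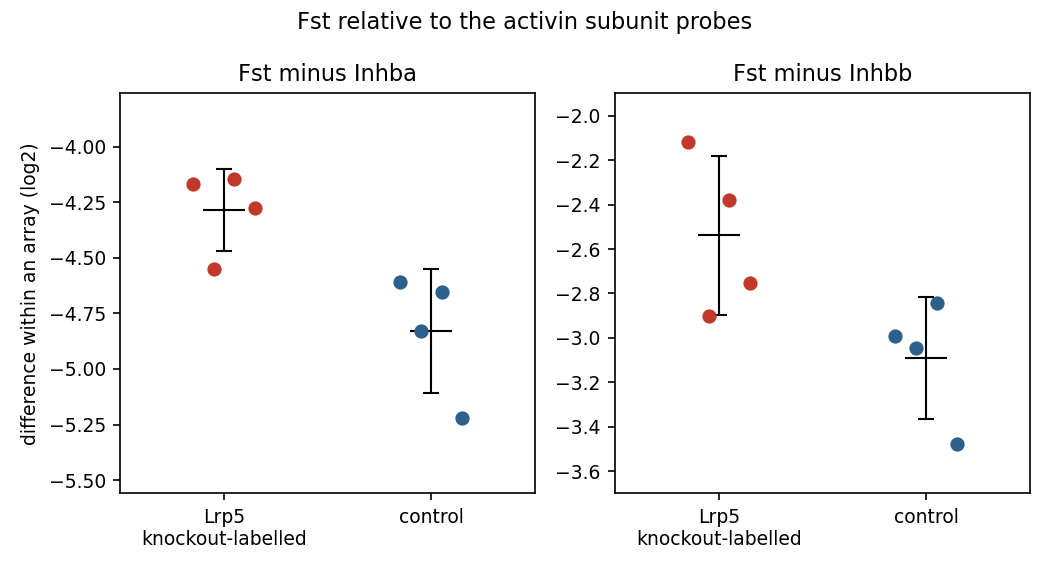
Log2 difference between the Fst probe and the Inhba probe (left) or the Inhbb probe (right) within each array, for knockout-labelled arrays (red) and control arrays (blue), with mean and SD. The shift between the groups was 0.54 for Inhba, with no overlap, and 0.55 for Inhbb, with knockout-labelled replicate 2 inside the control range.

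How the members varied together within the groups does not depend on the contrast, so it was tested. Deviations from the group means were correlated over the 8 arrays for the 15 pairs of tested members, with exact two-sided tests over all 576 rearrangements within groups. The largest Pearson correlation in size was between Fst and Inhbb, which ran opposite to each other (Pearson r = -0.86, exact permutation p = 0.0243; Spearman rho = -0.79, p = 0.0451). Fst and Acvr2b also ran opposite and had the largest Spearman correlation in size (r = -0.81, exact permutation p = 0.0278; rho = -0.86, p = 0.0174). Neither passed adjustment over the 15 pairs (smallest adjusted exact permutation p = 0.208 for r and 0.260 for rho). Knockout-labelled replicate 1 and control replicate 4 lay farthest from the median of Fst. Without them the correlation of Fst and Inhbb was smaller in size, at -0.65 (rho -0.37). Leaving out the extremes of Fst narrows its range, which can itself lower a correlation. Whether the relation rests on those arrays was not tested. Replicates 2 and 4 of the knockout-labelled group, high for Inhbb and Acvr2b and low for Fst, had the higher median intensities of their group, 134.7 and 154.8, against 125.8 and 130.7 for replicates 1 and 3. In the control group replicates 2 and 4 also had the higher medians, 153.58 and 147.17, against 136.68 and 134.35 for replicates 1 and 3. There, too, both were higher for Acvr2b and lower for Fst, but only replicate 4 was higher for Inhbb. The part of array brightness in these relations was not tested.

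The genes whose signal followed Fst most closely over the 8 arrays were Ifngr1, Adamts5, Ift172, Avil and Arhgap1, with Pearson r of 0.98, 0.97, 0.96, 0.96 and 0.96. Within the groups, after removal of the group means, these correlations were 0.84, 0.83, 0.74, 0.72 and 0.91. They are descriptions, since the genes share arrays and normalization with Fst and were picked from 7041 for their likeness. Ifngr1, the ligand-binding chain of the interferon gamma receptor, averaged 8.17 ± 0.08 log2 in knockout-labelled arrays and 7.85 ± 0.07 log2 in control arrays (SD, n = 4 each). Adamts5, an aggrecan-cleaving protease, averaged 8.04 ± 0.11 log2 in knockout-labelled arrays and 7.59 ± 0.13 log2 in control arrays. Their differences of 0.33 and 0.46 log2 were smaller than that of Fst, and so were those of Avil (0.45), Ift172 (0.22) and Arhgap1 (0.20).

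The other genes of the pathway were taken from 6 lists holding 68 genes, of which 59 had a named probe and 33 entered the test. Bmper was the only gene called, higher in knockout-labelled arrays, and 0 were called lower, which is 3.03% of the 33 against 8.62% of all genes tested; 8 had an unadjusted limma p under 0.05, as did 25.8% of all genes tested, so neither count stands above the background. Their median difference was 0.06 log2, with 24 above 0 and 9 below, against 0.00 for all genes.

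Bmper encodes a secreted protein that binds BMPs and modulates their signalling. It stood at 10.66, 10.89, 10.68 and 10.76 log2 on the knockout-labelled arrays, against 10.50, 10.23, 10.24 and 10.49 log2 on the control arrays. The groups did not overlap, and the difference was 0.38 log2 (SE 0.09, 1.31-fold; limma adjusted p = 0.0234). Over all alternatives the adjusted p ranged between 0.00071 and 0.0669, and the call was lost under 5 of 19, among them those without knockout-labelled replicate 2 (0.0644), control replicate 2 (0.0669) or control replicate 3 (0.0651) and that with no detection filter (0.0538).

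Smoc1 and Grem1 were the other secreted binders with the smallest p-values, in a list of 6 tested genes that were all above 0 (median 0.09). Smoc1, a relative of SPARC with a follistatin-like domain, stood at 8.45, 8.22, 8.41 and 8.22 log2 on the knockout-labelled arrays, against 7.22 to 8.07 log2 on the control arrays. The groups did not overlap, but control replicate 4, at 7.22, lay far below the other control arrays, the next of which was at 7.98, and the difference of 0.51 (SE 0.17) did not pass (limma adjusted p = 0.0885). Without that array the difference was 0.31 and passed (adjusted p = 0.0376), but it did not pass under 15 of the 19 alternatives. Grem1, the BMP antagonist gremlin, differed by 0.12 (SE 0.09; limma adjusted p = 0.451).

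Among 7 other receptors and coreceptors tested, 0 were called by limma and 3 had an unadjusted p under 0.05. Over all genes tested 25.8% had such a p, which is the background for this count and for those of the lists below. The median difference was 0.16 log2, with 5 above 0 and 2 below. Bmpr1b, a type I BMP receptor, averaged 7.98 ± 0.09 log2 in knockout-labelled arrays and 7.64 ± 0.22 log2 in control arrays (SD, n = 4 each), a difference of 0.34 (SE 0.10; limma adjusted p = 0.0677). Tgfbr3, or betaglycan, the coreceptor that lets inhibin compete with activin, averaged 10.30 ± 0.02 log2 in knockout-labelled arrays and 10.05 ± 0.16 log2 in control arrays, a difference of 0.25 (SE 0.08; limma adjusted p = 0.0748). Other detected probes of these genes differed by 0.18 for Bmpr1b and 0.11 for Tgfbr3. Tgfbr1, the type I receptor for TGF-beta, differed by -0.22 (SE 0.08; limma adjusted p = 0.111). Acvr1c and Acvrl1, the remaining activin receptor-like genes, and Bmpr2, Tdgf1 and Bambi were detected on no array.

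The other ligands gave almost no signal. Bmp4 was the only 1 of 10 with a probe to be tested, and it differed by 0.22 log2 (SE 0.14; limma adjusted p = 0.35). Inha, whose product turns beta subunits into inhibins, was detected on no array, nor were Inhbc, Inhbe, Mstn, Gdf3, Nodal, Bmp2, Bmp6 and Bmp7.

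Of 10 Smads and partners tested, 0 were called by limma and 2 had an unadjusted p under 0.05, with a median difference of 0.02 log2. Smad2 and Smad3, which carry the activin signal, differed by 0.04 (SE 0.08; limma adjusted p = 0.818) and 0.12 (SE 0.09; limma adjusted p = 0.411), and their common partner Smad4 by -0.06 (SE 0.05; limma adjusted p = 0.542). Skil, a Smad corepressor that is itself induced by TGF-beta and activin, stood at 10.19, 10.26, 10.19 and 10.11 log2 on the knockout-labelled arrays, against 10.00, 10.04, 9.81 and 9.92 log2 on the control arrays. Its groups did not overlap, and the difference of 0.24 (SE 0.07) fell just short of the threshold (limma adjusted p = 0.0512). The ubiquitin ligase Smurf2 differed by -0.18 (SE 0.07; limma adjusted p = 0.116) and the corepressor Tgif1 by 0.15 (SE 0.09; limma adjusted p = 0.317), with 0.32 and 0.34 for the other detected Tgif1 probes.

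Of 5 tested genes that activin or TGF-beta can induce, 0 were called by limma and 1, Skil, had an unadjusted p under 0.05; the median was 0.11 log2. Ccn2, a matricellular growth factor, differed by 0.15 (SE 0.07, limma adjusted p = 0.234) and the transcription factor Bhlhe40 by 0.11 (SE 0.06, limma adjusted p = 0.238). With Skil, these made 3 above 0, and 2 were below. Tgfbi differed by -0.14 (SE 0.13, limma adjusted p = 0.547), with -0.15 for its other detected probe. Pmepa1 differed by -0.06 (SE 0.15, limma adjusted p = 0.840). Of 6 BMP response genes tested, 0 were called by limma and 1 had an unadjusted p under 0.05; the median was -0.04 log2.

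That gene was Id1, an inhibitor of basic helix-loop-helix factors and a direct BMP target. It stood at 8.05, 7.81, 7.88 and 7.66 log2 on the knockout-labelled arrays, against 8.58, 8.51, 8.31 and 7.93 log2 on the control arrays. Control replicate 4 overlapped with the knockout-labelled arrays, and the difference of -0.49 (SE 0.14) did not pass (limma adjusted p = 0.0556); without that array it was -0.62 and passed (adjusted p = 0.00857), and it passed under 8 of the 19 alternatives in all. Id2 differed by -0.29 (SE 0.13, limma adjusted p = 0.206), with -0.20 for its other detected probe. Hey1, which is also a Notch target, differed by 0.10 (SE 0.08, limma adjusted p = 0.433). It was dim, detected on 3 arrays of each group. Smad6 differed by -0.12 (SE 0.11, limma adjusted p = 0.520), Id3 by 0.055 (SE 0.14, limma adjusted p = 0.846) and Msx2 by 0.05 (SE 0.09, limma adjusted p = 0.795). The list thus split into 3 above 0 and 3 below.

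**Figure D4:**
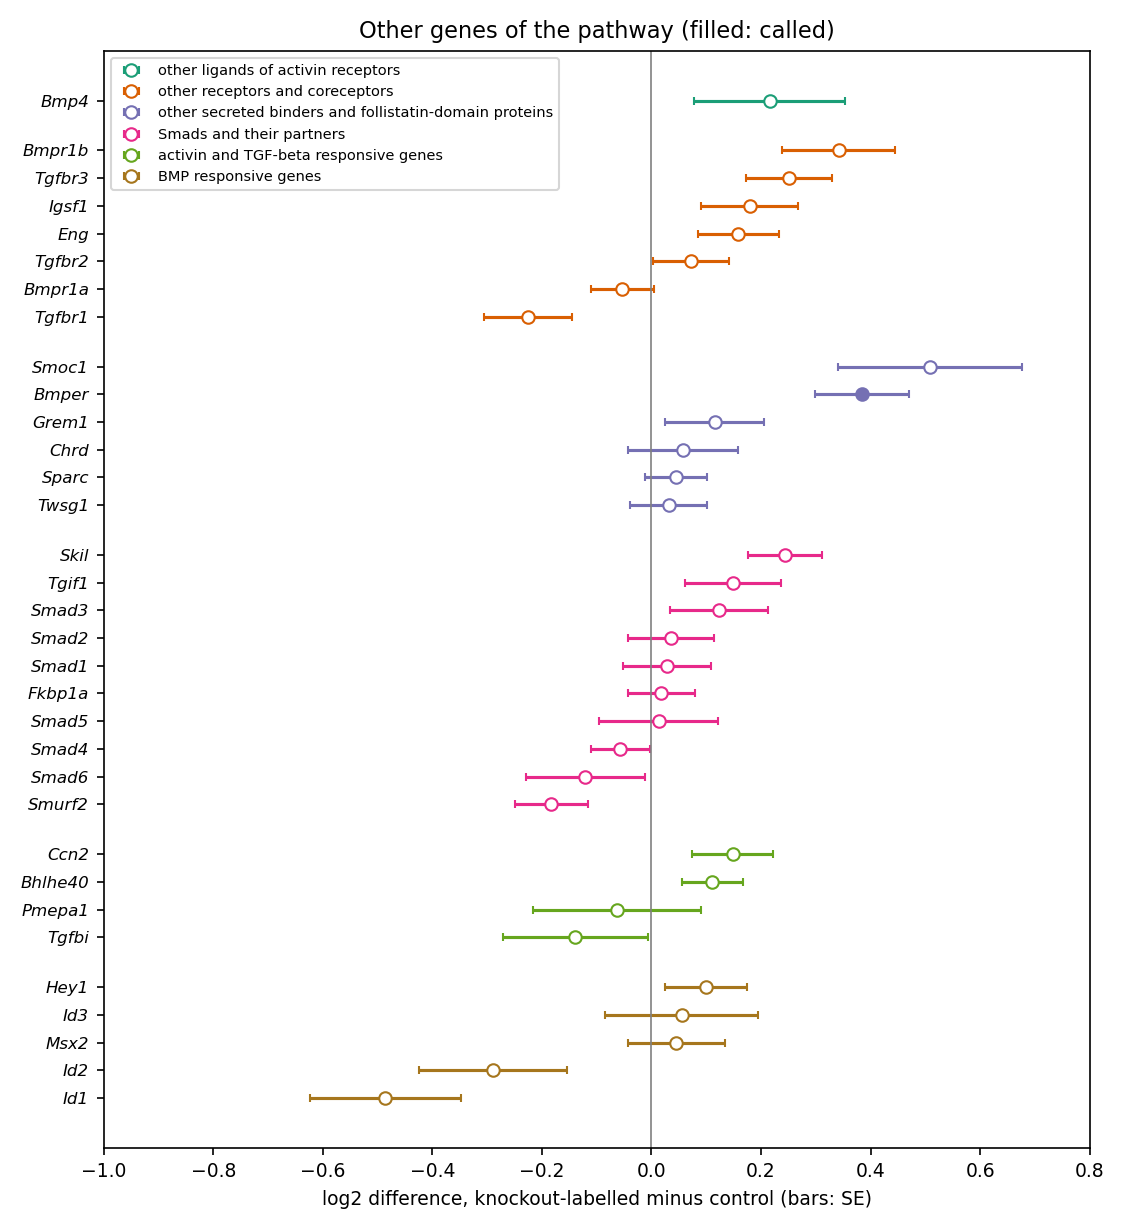
Log2 difference, knockout-labelled minus control, with its SE, for the 33 pathway genes tested, coloured by list; Skil and Smad6 are drawn once, among the Smads. Bmper (0.38) is the filled point, the only gene called, and Id1 (-0.49) and Smoc1 (0.51) lie farthest from 0.

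Single markers of other cell types differed between the groups beside Fst: 1 of 5 chondrocyte markers was called higher and 1 of 4 skeletal muscle markers lower. Over all 7041 genes tested, 3.54% were called higher and 5.08% lower. Each of these counts rests on 1 gene, and nothing is read from them about a cell type. The summed normalized signal of the 5 chondrocyte markers was 1905 to 2040 on the knockout-labelled arrays, against 1281 to 1628 on the control arrays. Col2a1, the cartilage collagen, was 0.45 log2 higher (limma adjusted p = 0.00757), while Sox9 and Comp were not called. Acan and Col10a1 were detected on no array and add only background. That sum does not show whether markers other than Col2a1 rose. The 4 skeletal muscle markers with a probe summed to 184.8 to 251.4 on the knockout-labelled arrays, against 273.8 to 358.0 on the control arrays; Acta1 fell by 0.73 log2 (limma adjusted p = 0.0153), and Myod1, Myog and Ckm were detected on no array, so that sum is Acta1 plus background. For the 5 macrophage and osteoclast markers with a probe the sums overlapped, 5944 to 6503 on knockout-labelled and 5923 to 6600 on control arrays. Of these, Adgre1, Lyz2 and Ctsk were detected on at least 4 arrays and not called, while Ptprc and Acp5 were detected on no array. The sums of the 8 osteoblast markers with a probe also overlapped, 32412 to 35684 on knockout-labelled and 30902 to 33733 on control arrays, with 0 called. The part of these cell types in the Fst difference was not tested.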

How the data were processed

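Total RNA of 8 samples was labelled with biotin and hybridised to Illumina arrays. Per the submitters' processing notes, the authors used GenomeStudio; the version and settings of GenomeStudio are not given in the sources used here. Raw deposited intensities, 1 column per array, were linear, with medians that differed and no subtraction of background. A deposited detection column, headed as a p-value, held a fraction that rose with signal (Spearman correlation at least 0.979), so 1 minus it served as the detection p. The deposited log2 table, with identical distributions on all arrays, was taken as quantile-normalized by the authors and used as an alternative.

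Intensities were normalized with neqc (offset 16) of limma 3.58.1 in R 4.3.3. Probes detected at p under 0.01 on at least 4 arrays were kept, and the brightest probe was used for each gene, giving 7041 genes. Groups were compared with lmFit and eBayes without covariates, adjusted by Benjamini-Hochberg (threshold 0.05). The steps were tested on simulated data. Array number, 4 a group, limits the precision.

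The members and lists were chosen with earlier results of these data known. Named are every member, Lrp5, called genes and up to 3 with the smallest p of each pathway list, the 5 genes most like Fst and the cell type markers. Smad2, Smad3, Smad4, the remaining tested genes of the 2 response lists and undetected genes were named in addition. Alternatives were other background corrections, scaling, filters, probe rules, priors, array weights, the replicate number as a block and leaving out each array. The labels give no batch. No sequences are shown.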

Additional observations from a re-analysis of the deposited data

Results flagged for a closer look

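In 4 of the 52 sets of 4 arrays examined, 1 array stood apart from the others of its group by Dixon's test; chance gives such a gap in about 1 of 20 sets. Fstl1 was low on knockout-labelled replicate 2 after normalization, at 13.16 log2 with the next array at 13.27. In deposited intensity that array, at 9278, was not the lowest of its group, which was replicate 1 at 8650. Smoc1 was low on control replicate 4, at 7.22 log2 with the next at 7.98, and Tgfbr1 was low on the same array, at 8.32 with the next at 8.50. Hey1 was high on control replicate 1, at 5.89 log2 with the next at 5.71.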

How the results depend on the processing

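The 607 genes called (249 higher and 358 lower in knockout-labelled arrays) became 985 without background correction, 971 in the authors' log2 values, 965 with a trended and robust prior and 376 with no detection filter; with 1 array left out they numbered 310 to 708. With 75th percentile scaling, 338 were higher and 315 lower. Fst was called under all 19 alternatives, and Fstl1 too under the trended and robust prior, which made 2 members called; leaving out arrays kept 1. Since the family was chosen with this contrast in view, the repeated member calls restate that choice and nothing is read from them. Pathway calls numbered 6 without background correction, with normexp at offset 50 and in the authors' values, 5 with the trended and robust prior, 3 with 75th percentile scaling, array weights, detection on all 8 arrays or the mean of probes, 0 with no filter, and 0 to 3 with 1 array left out. The added genes were among Skil, Id1, Bmpr1b, Tgfbr3 and Smoc1. The causes were not tested. The lowest correlation of the 5 genes most like Fst was 0.944 to 0.966 with 1 array left out. The genes were kept as picked on all 8 arrays and not picked again, so the stability of that list was not tested. Over all genes tested, arrays of the same replicate number did not deviate together (correlations -0.03 to 0.09). This does not exclude a pairing of the arrays. With the replicate block, 408 genes were called, Fst among them; 1 pathway gene passed, Id1 (adjusted p = 0.0246), and Bmper did not (0.0555). Dim probes limit what can be said of Acvr2b, and more so of Acvr1b and Acvr2a.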
